A study of Mus musculus with 30 samples.

Results

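Proinflammatory and regulatory cytokines were examined as 10 named genes: Tnf, Il1a, Il1b, Il1rn, Il6, Il10, Il12b, Il18, Tgfb1 and Osm. They were chosen by symbol, as protein-coding entries of the deposited annotation joined by gene identifier to the expression table. A row was found for 9 of the 10 among the 30952 genes of the table, and Il10 was not analysed here. RNA-seq was performed on microglia, the resident macrophages of the CNS, and on astrocytes, both sorted from the spinal cord of C57BL/6 mice. EAE (experimental autoimmune encephalomyelitis), a model of multiple sclerosis, was induced in young adult female mice with a MOG peptide. At a clinical score near 1 the mice were dosed by oral gavage for 3 days, BID. EAE-vehicle mice received 20% Captisol and EAE-RIPK1inh mice received GSK'547 at 50 mg/kg, an inhibitor of the kinase activity of RIPK1. Naive mice had neither EAE nor, by their labels, any dosing, so the comparison of EAE-vehicle with naive holds both EAE and the vehicle. There were 4 naive, 6 EAE-vehicle and 5 EAE-RIPK1inh libraries of each cell type, 30 in all. Microglia had been gated as CD11b+ CX3CR1+ cells with intermediate CD45, and astrocytes as GLAST+ cells without CD11b, CD45 or CD140a.

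TNF and IL-1 are early inflammatory cytokines that act through NF-kB, and IL-1β and IL-18 are made as precursors that caspase-1 cleaves within inflammasomes. Natural antagonists oppose them: the IL-1 receptor antagonist, encoded by Il1rn, occupies the IL-1 receptor without signaling, and the IL-18 binding protein, encoded by Il18bp, captures secreted IL-18. IL-6 and oncostatin M signal through the shared gp130 chain (Il6st), the IL-12 p40 subunit (Il12b) is common to IL-12 and IL-23, and TGF-β1 restrains microglia through Tgfbr1 and Tgfbr2. Microglia and infiltrating myeloid cells are known sources of these cytokines in the inflamed CNS.

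Values are log2 FPKM, a read count divided by transcript length and by the size of the library, so that levels of different genes can be compared. They had been quantile-normalized over all 30 libraries, so read depth is unknown. Detection was measured by the genes with signal, of which microglia libraries had 8710 to 20398 and astrocyte libraries 6728 to 22981. Genes without signal carry small values that only follow their order in the table, and such values are called "without signal" below. The lowest detection was in astrocyte EAE-vehicle 1, where values up to 2.74 were without signal. Among microglia libraries it was in naive 4, where values up to 1.74 were without signal. The labels were checked with 10 microglial and 8 astrocyte markers. In microglia libraries the mean of the microglial list lay at 8.58 to 10.95 and that of the astrocyte list at 0.99 to 2.12. In astrocyte libraries the astrocyte list lay at 7.85 to 9.39 and the microglial list at 0.95 to 4.03, so every library carried the markers of its label. Astrocyte libraries also held oligodendrocyte markers, with list means of 6.19 to 9.91, and neuronal markers, with means of 3.89 to 6.07. "Rose" and "fell" are used for a gene with a Benjamini-Hochberg adjusted p under 0.05 in limma over all genes tested, and "met the cutoff" for a fold change over 1.5 with an unadjusted p under 0.05, the thresholds of the study. Intervals are 95% confidence intervals of the same fits. In bulk samples, fewer cells of a type and less RNA per cell cannot be told apart.

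Il1a and Il18 were the most abundant of these cytokines in naive microglia, at a mean of 6.68 ± 0.87 and 5.74 ± 0.48 log2 FPKM (SD, n = 4). Osm followed at 4.61 ± 0.44 and Tnf at 4.13 ± 1.30. Lower levels were found for Il6 at 2.31 ± 0.99, Tgfb1 at 1.68 ± 0.77, Il1rn at 1.27 ± 1.30 and Il1b at 1.02 ± 1.30. Il12b was listed at 0 in each of the 4 naive libraries. Between neighbours in this order, the ranges over libraries did not overlap for Il18 and Osm or for Tnf and Il6. The other neighbours overlapped or, for Il1b and Il12b, included libraries without signal. In EAE-vehicle microglia the order was Il1a, Il18, Il1rn, Tnf, Il1b, Osm, Il12b, Tgfb1 and Il6, with means from 6.51 ± 0.43 to 0.36 ± 0.37 (SD, n = 6). Il1rn stood above Tnf here and Il6 stood last. The ranges of Il18 and Il1rn did not overlap, while those of the other neighbours did. Of the 9 cytokines, 4 had signal in all 15 microglia libraries (Il1a, Il18, Tgfb1 and Osm) and none had it in all 15 astrocyte libraries.

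**Figure D1:**
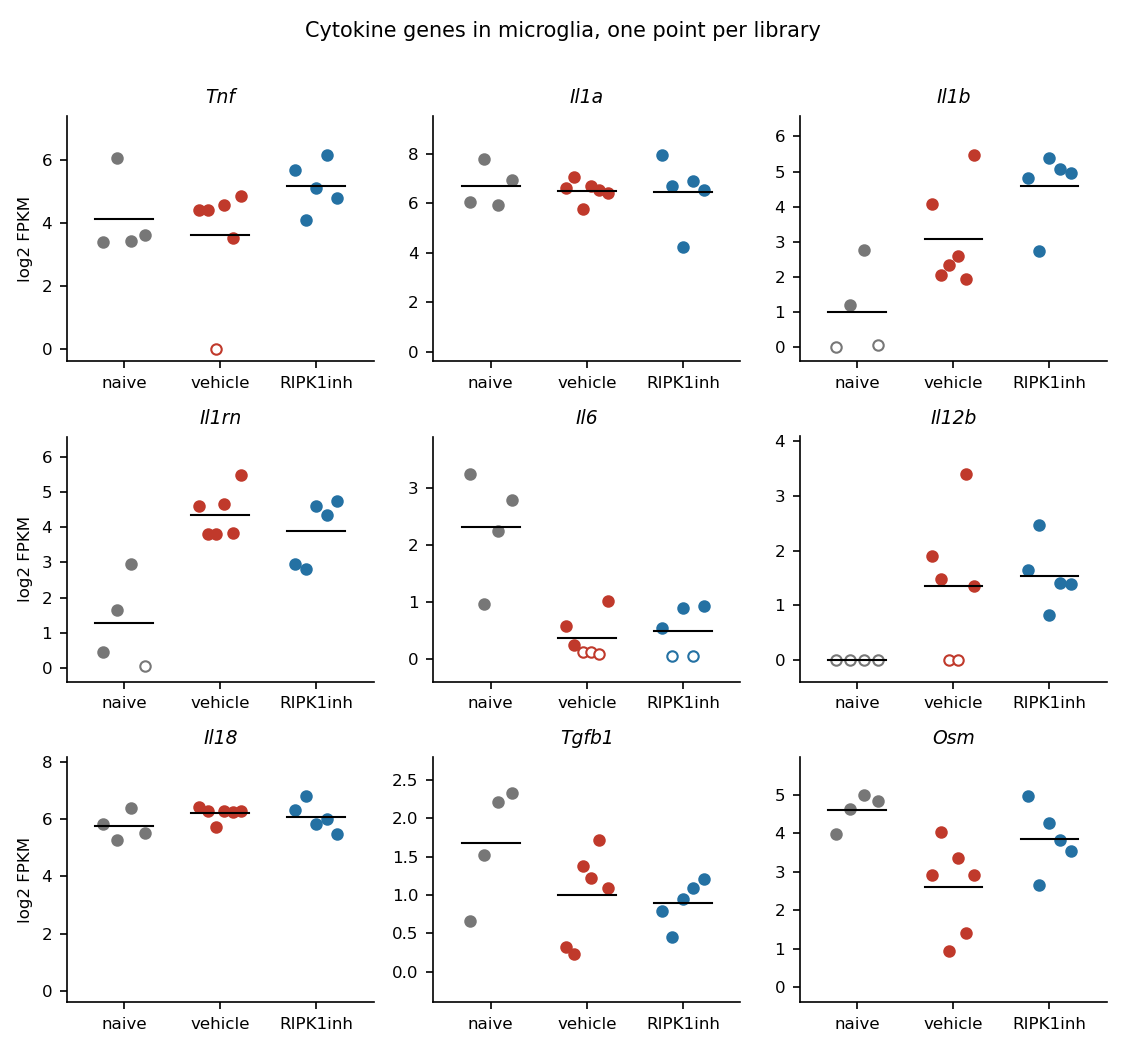
Level of each of 9 cytokine genes in microglia, in log2 FPKM on the vertical axis, by group on the horizontal axis; each point is 1 library, open points are without signal and the line is the group mean. Il1rn lies at 3.81 to 5.48 in EAE-vehicle microglia, above all 4 naive libraries, and Il6 lies at 0.10 to 1.02 against 0.96 to 3.25 in naive microglia.

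EAE was compared with naive to learn which of these cytokines the disease changes in microglia. Il1rn rose and Il6 fell, so 2 of 9 cytokines were called, against 3.92% of the 28958 genes tested. Il1b and Il12b were higher and Osm was lower at the cutoff alone, which brought the number that met it to 5 of 9, against 12.0% of all genes. The median difference over the 9 was -0.17 on the log2 scale, and -0.02 over all genes tested. Tnf, Il1a, Il18 and Tgfb1 met neither threshold.

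Il1rn and Il1b lie on chromosome 2 in GRCm38, Il1rn at 24336853-24351494 on the plus strand and Il1b at 129364570-129371139 on the minus strand, and Il1a lies 54597 bases beyond Il1b at 129299610-129309972. The 250 bases before the RefSeq start (GRCm38.p6) are shown for the antagonist and the agonist that it opposes because the levels of both were higher in EAE, with matches to the searched motifs in capitals.
Il1rn, chr2:24336610-24336859, plus strand: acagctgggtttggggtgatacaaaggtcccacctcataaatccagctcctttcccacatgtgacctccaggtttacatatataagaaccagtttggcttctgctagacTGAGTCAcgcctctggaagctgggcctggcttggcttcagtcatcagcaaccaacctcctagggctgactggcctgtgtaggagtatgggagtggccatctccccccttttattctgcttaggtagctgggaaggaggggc
Il1b, chr2:129371140-129371389, minus strand: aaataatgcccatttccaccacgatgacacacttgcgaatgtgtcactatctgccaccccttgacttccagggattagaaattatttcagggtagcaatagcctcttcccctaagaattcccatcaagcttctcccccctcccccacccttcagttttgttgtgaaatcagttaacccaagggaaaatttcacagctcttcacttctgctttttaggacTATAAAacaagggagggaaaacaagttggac
The motifs searched, on both strands, were TGANTCA for AP-1, GGNNTTTCC for NF-kB, TTGNNCAA for C/EBP and TATAAA for the TATA box. Il1rn held the AP-1 letters once, beginning 141 bases before the start, and Il1b held the TATA letters once, beginning 31 bases before it. Of the 27025 promoters of the same length, 6.87% held the AP-1 letters and 13.0% the TATA letters. RefSeq lists 3 starts for Il1rn, and the one nearest the annotated start of the gene is shown, while the promoter of another held the NF-kB letters, beginning 50 bases before its start.

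Il1rn, the antagonist, was at 0.46, 1.64 and 2.94 log2 FPKM in 3 naive microglia libraries and at 0.05 without signal in naive 4. In the 6 EAE-vehicle libraries it ran from 3.81 over a median of 4.21 to 5.48. No EAE-vehicle library reached down to the highest naive library. The difference was 3.09 (SE 0.59, interval 1.83 to 4.34, adjusted p = 0.00634), or 8.50-fold in the listed values. That fold depends on the unknown offset before the logarithm and on naive 4, where values up to 1.74 were without signal. The exact two-sided permutation p was 0.00476, the smallest that 210 splits allow. Il1rn stayed called with each of the 15 microglia libraries left out in turn, with an adjusted p of at most 0.0258.

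Il1b, the secreted agonist, was at 0.00 and 0.08 without signal in 2 naive libraries and at 1.22 and 2.77 in the other 2. In EAE-vehicle microglia it ran from 1.94 over a median of 2.46 to 5.49, and 4 of the 6 values lay below the highest naive library. The difference of 2.06 (SE 0.77, interval 0.40 to 3.72) met the cutoff and not the adjusted threshold (adjusted p = 0.207, exact permutation p = 0.0571). It missed the cutoff without naive 1 or naive 4, with an unadjusted p up to 0.0634, and with library quality weights (0.0732). Il1a, the alarmin of the pair, was at 6.05, 7.79, 5.92 and 6.94 in naive microglia. Its 6 EAE-vehicle values ran from 5.76 over 6.57 to 7.08, within the naive range except at the lower end, and the difference was -0.17 (interval -1.38 to 1.05), or 0.20 without naive 2. The annotation marks Il1a, Il1b and Il18 as confounded with another gene, and each overlaps a gene on the opposite strand (Gm14023, Il1bos, and Bco2 with Tex12), whose reads cannot be told apart from theirs without strand.

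Monocyte and neutrophil markers also varied among the microglia libraries. The mean of the 9 markers was 1.97 to 6.24 over naive, 3.12 to 6.78 over EAE-vehicle and 2.44 to 7.90 over EAE-RIPK1inh libraries, and the summed level of the list was 17.8 to 56.1, 28.0 to 61.0 and 22.0 to 71.1. Of the 9, Fn1 rose in EAE and 3 in all met the cutoff, with Ccr2 without signal in every naive library. The naive library with the highest Il1b and Il1rn, naive 3, was also the naive library with the highest marker mean, at 6.24. Within EAE-vehicle, libraries 4, 5 and 2 had the lower marker means (3.12, 4.20 and 4.23). Their Il1rn was at 4.65, 3.83 and 3.81 and their Il1b at 2.59, 1.94 and 2.06. Libraries 6, 3 and 1 had the higher marker means (6.33, 6.50 and 6.78). Their Il1rn was at 5.48, 3.81 and 4.59 and their Il1b at 5.49, 2.33 and 4.08. When the 5 microglia libraries with a marker mean above 6 were left out, a choice made after the data were seen, Il1rn differed by 3.38 (adjusted p = 0.0465) and Il1b by 1.76 (unadjusted p = 0.0251), and Il6 was lower by 2.18 and no longer called (adjusted p = 0.219). Osm was lower by 1.55 and Il12b differed by 1.63, and both no longer met the cutoff (unadjusted p = 0.0641 and 0.0704). The marker mean of the libraries left in was 1.97 to 3.50 in naive and 3.12 to 4.23 in EAE-vehicle microglia. Microglial markers moved as well, with 6 of 10 lower and 1 higher at the adjusted threshold, among them P2ry12 and Tmem119, and the part of this in the cytokine values was not tested.

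**Figure D2:**
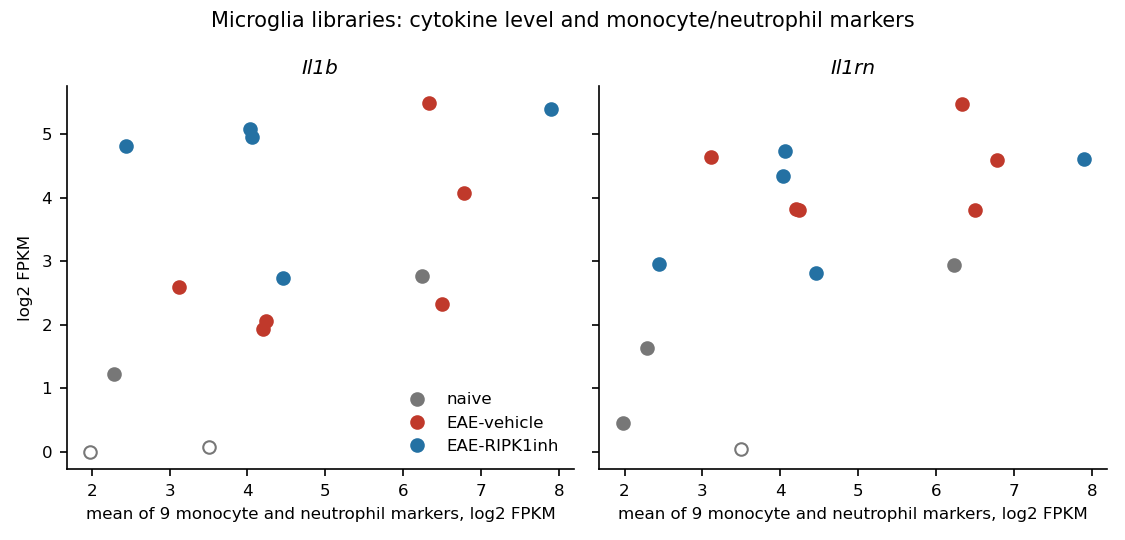
Level of Il1b (left) and Il1rn (right) in the 15 microglia libraries, in log2 FPKM, against the mean of 9 monocyte and neutrophil markers in the same library; open points are without signal. Naive 3, with a marker mean of 6.24, has the highest Il1b (2.77) and Il1rn (2.94) of the naive libraries. Il1b is at 4.82 in EAE-RIPK1inh 1, with a marker mean of 2.44, and at 5.39 in EAE-RIPK1inh 3, with the highest (7.90). The highest Il1b (5.49) is in EAE-vehicle 6, with a marker mean of 6.33.

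The receptors differed in level. Tnfrsf1a and Tnfrsf1b, the TNF receptors, were at 5.47 ± 0.57 and 5.53 ± 0.87 in naive microglia (SD, n = 4), while Il1r1, the signaling IL-1 receptor, was at 0.00 to 0.75 in naive and 0.00 to 0.93 in EAE-vehicle microglia. Of 18 receptor genes, 2 rose in EAE-vehicle microglia (Il12rb1 and Il18rap) and 3 fell (Tgfbr1, Il6st and Il10rb). Their median difference was -0.48, and 3 higher and 7 lower receptors met the cutoff.

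Il6 lies on chromosome 5 at 30013114-30019981 on the plus strand, and its promoter is shown because it was the only one of the 8 cytokine promoters in the RefSeq table that held 3 of the 4 motifs.
Il6, chr5:30012864-30013113, plus strand: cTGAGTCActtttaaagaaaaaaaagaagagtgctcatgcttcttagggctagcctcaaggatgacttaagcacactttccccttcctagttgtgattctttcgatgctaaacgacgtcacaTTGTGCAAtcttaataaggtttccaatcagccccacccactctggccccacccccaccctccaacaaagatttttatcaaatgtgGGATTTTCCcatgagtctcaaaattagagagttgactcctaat
The capitals mark, in order, the AP-1, C/EBP and NF-kB letters, which begin 249, 128 and 43 bases before the start and do not overlap. The C/EBP letters were in 5.74% and the NF-kB letters in 4.84% of all promoters. Among the 8, Il1a and Il1rn also held the AP-1 letters, and Tnf, Il1a, Il1b and Il18 held the TATA letters. No promoter of Osm was shown.

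Il6, a pleiotropic cytokine that drives acute phase and T cell responses, was at 3.25, 0.96, 2.25 and 2.79 in naive microglia. In EAE-vehicle microglia it ran from 0.10 over a median of 0.18 to 1.02 and was without signal in 3 of 6 libraries. The groups overlapped only between the lowest naive library (0.96) and the highest EAE-vehicle library (1.02). Il6 fell by 1.95 (SE 0.42, interval -2.85 to -1.05, adjusted p = 0.0153, exact permutation p = 0.00952). With each of the 15 microglia libraries left out in turn, the adjusted p stayed at or below 0.0433, and with library quality weights it was 0.112.

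Osm, on chromosome 11 at 4236420-4241026, encodes oncostatin M, a gp130 cytokine of myeloid cells that acts on astrocytes and endothelium. It was at 3.98, 4.64, 4.99 and 4.84 in naive microglia. In EAE-vehicle microglia it ran from 0.95 over 2.92 to 4.04, and only the highest of these 6 values reached the naive range. The difference of -2.01 (SE 0.58, interval -3.25 to -0.78) met the cutoff and not the adjusted threshold (adjusted p = 0.0731, exact permutation p = 0.0238). It was past the adjusted threshold among protein-coding genes alone (0.0461), among genes with a mean of at least 1 (0.0184) and without EAE-vehicle 2 (0.0339), and it missed the cutoff without the 5 libraries high in monocyte and neutrophil markers (unadjusted p = 0.0641). The shared receptor chain Il6st fell by 2.36 (adjusted p = 0.00285), from 5.46 ± 0.45 in naive (SD, n = 4) to 3.10 ± 0.69 in EAE-vehicle microglia (SD, n = 6), with no overlap. Il6ra, the IL-6 binding chain, was at 5.35 ± 1.07 and 3.12 ± 0.54 in the same groups, a difference of -2.23 that met the cutoff alone (adjusted p = 0.0743). Osmr, the specific oncostatin M receptor chain, was at most 0.53 in any naive or EAE-vehicle microglia library. Of 10 targets and feedback genes, Zfp36, whose protein destabilizes cytokine mRNAs, was the 1 called, and fell by 2.82 (adjusted p = 0.0272).

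Il12b lies on chromosome 11 at 44400063-44414033 on the plus strand. Against the 4 naive microglia libraries at 0, its EAE-vehicle values ran from 0.00 over 1.42 to 3.41, with signal in 4 of 6 libraries. This met the cutoff (unadjusted p = 0.0343, adjusted p = 0.299) and had an exact permutation p of 0.133. It missed the cutoff in 7 of 15 fits with 1 library left out (any naive library or EAE-vehicle 1, 2 or 5, unadjusted p 0.0530 to 0.0637), and no fold change can be given against a group listed at 0. Il12rb1, the receptor chain that binds p40, had no signal in any naive microglia library, where its values were at most 0.68, and lay at 2.08 to 4.21 in EAE-vehicle microglia (adjusted p = 0.0114). Il27, which encodes the p28 subunit of IL-27, rose by 3.32 (adjusted p = 0.00131), from 1.13 ± 0.85 (SD, n = 4) to 4.45 ± 0.89 (SD, n = 6), while Ebi3, its partner subunit, was at 3.93 ± 0.45 and 3.63 ± 1.87. Il16, a chemoattractant for CD4+ cells, fell by 2.85 (adjusted p = 0.00349). Il27 and Il16 were the 2 called of 20 related ligands tested.

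Il18, on chromosome 9 at 50554827-50581840, was abundant in every microglia library. It was at 5.83, 5.26, 6.38 and 5.50 in naive libraries and ran from 5.72 over 6.27 to 6.40 in EAE-vehicle libraries, a difference of 0.45 (interval -0.12 to 1.03, adjusted p = 0.518). Its antagonist Il18bp, in contrast, was at 0.25, 1.70 and 0.97 in 3 naive libraries and at 0.45 without signal in naive 4, and ran from 7.79 over 8.25 to 8.44 in EAE-vehicle libraries. Il18bp rose by 7.35 (SE 0.26, adjusted p = 4.80e-10), the largest difference among the receptor, processing, feedback and ligand genes of this comparison. In naive microglia the mean of Il18 was above that of Il18bp and in EAE-vehicle microglia below it, with no overlap between the 2 genes in either group. Il18rap, the accessory chain of the IL-18 receptor, was without signal in 3 of 4 naive libraries and at 0.61 in the other, and lay at 1.37 to 2.62 in EAE-vehicle microglia, a rise of 1.91 (adjusted p = 0.0371). Among 11 genes of processing, release and activation, Pycard, the inflammasome adaptor, also rose, by 1.02 (adjusted p = 0.0239), and Casp1 differed by 1.35 at the cutoff alone (adjusted p = 0.0872).

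Tnf, on chromosome 17 at 35199381-35202007, was at 3.39, 6.07, 3.43 and 3.62 in naive microglia. In EAE-vehicle microglia it ran from 0.00 over 4.42 to 4.86, and the value at 0, in EAE-vehicle 3, was the only microglia value without signal. The difference was -0.50 (interval -2.34 to 1.35), which spans changes in either direction, and its sign rested on single libraries: it was 0.23 without EAE-vehicle 3 and 0.15 without naive 2. Tgfb1, on chromosome 7 at 25687002-25705077, was at 0.66, 1.52, 2.21 and 2.33 in naive microglia and ran from 0.23 over 1.16 to 1.72 in EAE-vehicle microglia, a difference of -0.69 (interval -1.56 to 0.19). Its receptor Tgfbr1 was far more abundant and fell by 2.72 (adjusted p = 0.000163), from 8.40 ± 0.29 (SD, n = 4) to 5.68 ± 0.58 (SD, n = 6), with no overlap. Tgfbr2 differed by -1.08 at the cutoff alone (adjusted p = 0.106).

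**Figure D3:**
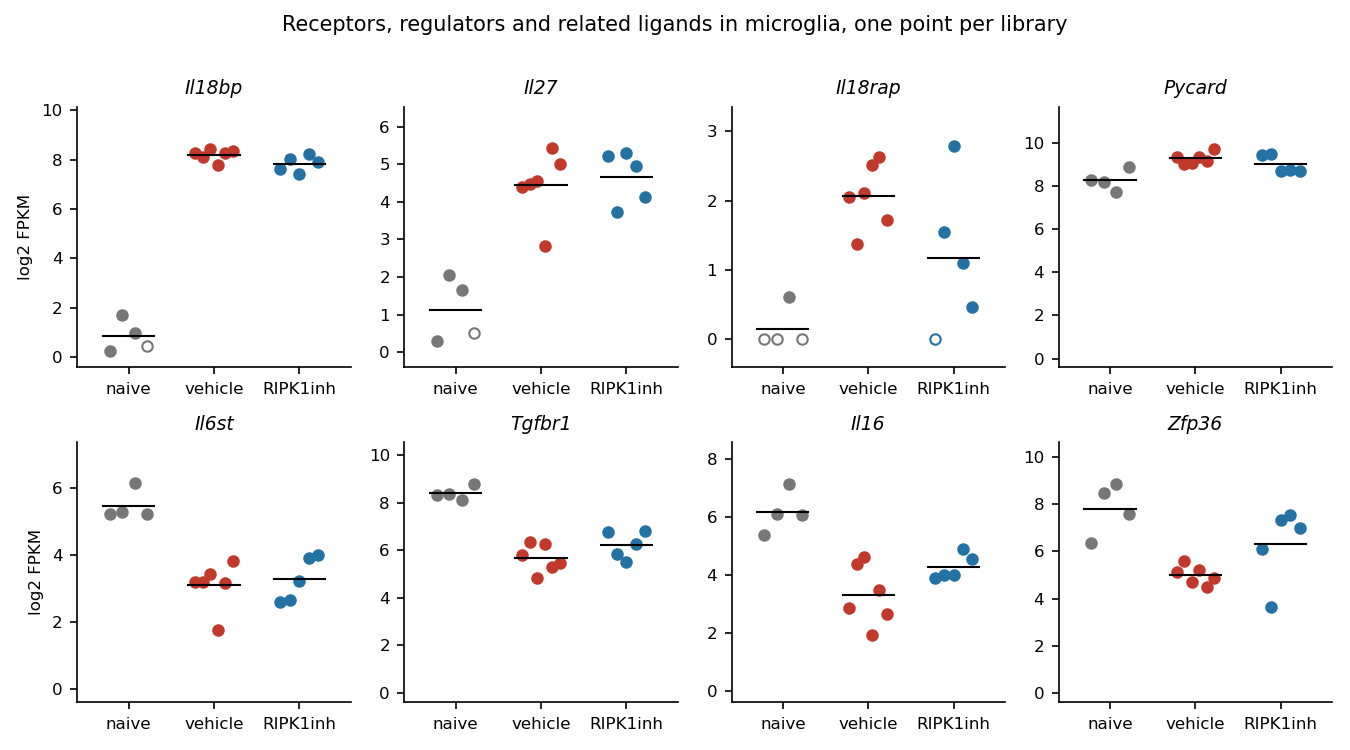
Level of 8 receptor, regulator and ligand genes that were called in microglia, in log2 FPKM on the vertical axis, by group; each point is 1 library, open points are without signal and the line is the group mean. Il18bp lies at 0.25 to 1.70 in naive and at 7.41 to 8.44 in all EAE libraries, and Tgfbr1 at 8.11 to 8.80 in naive and 4.85 to 6.80 in all EAE libraries.

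RIPK1 kinase inhibition was then compared with vehicle in microglia of EAE mice. None of the 9 cytokines was called, and 1 of 28958 genes was (0.00345%), while 832 genes had an unadjusted p under 0.05. Only Osm met the cutoff, against 1.76% of all genes. Osm was at 4.96, 2.66, 4.28, 3.82 and 3.54 in EAE-RIPK1inh microglia, higher by 1.25 than with vehicle (SE 0.54, interval 0.09 to 2.41, unadjusted p = 0.0360, adjusted p = 0.930, exact permutation p = 0.0887). It no longer met the cutoff without any 1 of EAE-vehicle 3 or 5 or EAE-RIPK1inh 1, 3 or 4, with an unadjusted p of 0.0547 to 0.103, and its difference ran from 0.92 to 1.55 with 1 library left out. Without the 5 libraries high in monocyte and neutrophil markers it was 0.81 (unadjusted p = 0.271).

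Il1b was at 4.82, 2.73, 5.39, 5.09 and 4.96 in EAE-RIPK1inh microglia. The 4 highest lay above 5 of the 6 EAE-vehicle values, and EAE-RIPK1inh 2 lay among them. The difference of 1.52 (SE 0.73, interval -0.04 to 3.07, unadjusted p = 0.0555, exact permutation p = 0.0887) met neither threshold. With 1 library left out it met the cutoff in 4 of 15 fits (without naive 3, EAE-vehicle 1, EAE-vehicle 6 or EAE-RIPK1inh 2, unadjusted p 0.00808 to 0.0429). Without those 5 libraries it was 2.20 and met the cutoff (unadjusted p = 0.00575, adjusted p = 1.0). Tnf was at 5.68, 4.10, 5.11, 6.17 and 4.78, with a difference of 1.54 (interval -0.19 to 3.26, unadjusted p = 0.0773), which was 0.81 without EAE-vehicle 3 and 1.01 without the 5 libraries (unadjusted p = 0.191). Il1rn was at 2.96, 2.81, 4.61, 4.34 and 4.73, a difference of -0.47 (interval -1.65 to 0.71).

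Intervals for the other cytokines were -1.18 to 1.10 for Il1a, -0.71 to 0.98 for Il6, -0.98 to 1.35 for Il12b, -0.65 to 0.42 for Il18 and -0.92 to 0.73 for Tgfb1. The interval of Il18 excludes a change of 1 log2 unit in either direction. Il6 was without signal in 3 of 6 EAE-vehicle and 2 of 5 EAE-RIPK1inh libraries, so a fall could not be seen there. The sign of the difference of Il1a rested on single libraries, since it was 0.51 without EAE-RIPK1inh 3 and 0.071 without EAE-vehicle 2. None of the 18 receptors, 11 processing genes, 10 targets or 20 related ligands was called or met the cutoff in this comparison. Il18bp was at 7.84 ± 0.33 with inhibitor (SD, n = 5) and 8.20 ± 0.23 with vehicle (SD, n = 6).

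EAE-RIPK1inh microglia were also compared with naive microglia, a comparison that shares its naive libraries with the one of EAE-vehicle. Of the cytokines, 3 of 9 were called, against 2.73% of genes, and 4 of 9 met the cutoff, against 10.1%. Il1b rose by 3.58 (SE 0.81, adjusted p = 0.0282) and Il1rn by 2.62 (SE 0.61, adjusted p = 0.0342), while Il6, at 0.54, 0.06, 0.89, 0.06 and 0.93 in EAE-RIPK1inh microglia, fell by 1.82 (SE 0.44, adjusted p = 0.0402). In the same order, the differences of EAE-vehicle from naive were 2.06, 3.09 and -1.95. Il12b, at 1.64, 2.47, 0.82, 1.40 and 1.38, had signal in every EAE-RIPK1inh library and in no naive one (adjusted p = 0.279, exact permutation p = 0.0159). These calls were close to the threshold. Leaving out any 1 of naive 1, naive 2, naive 4, EAE-RIPK1inh 1, 3, 4 or 5 put the adjusted p of Il1b between 0.0552 and 0.0876. For Il1rn, leaving out naive 1, 2 or 4, EAE-vehicle 1 or EAE-RIPK1inh 3, 4 or 5 gave 0.0511 to 0.102, and Il6 stayed called only without naive 2 or without EAE-vehicle 6, with 0.0552 to 0.105 otherwise. Without the 5 libraries high in monocyte and neutrophil markers the adjusted p was 0.0180 for Il1b, 0.0577 for Il1rn and 0.254 for Il6. Il27 rose by 3.54 (adjusted p = 0.00161) and Il18bp by 6.99 (adjusted p = 1.47e-09), and Csf1, the growth factor of microglia, by 2.83 (adjusted p = 0.0212).

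**Figure D4:**
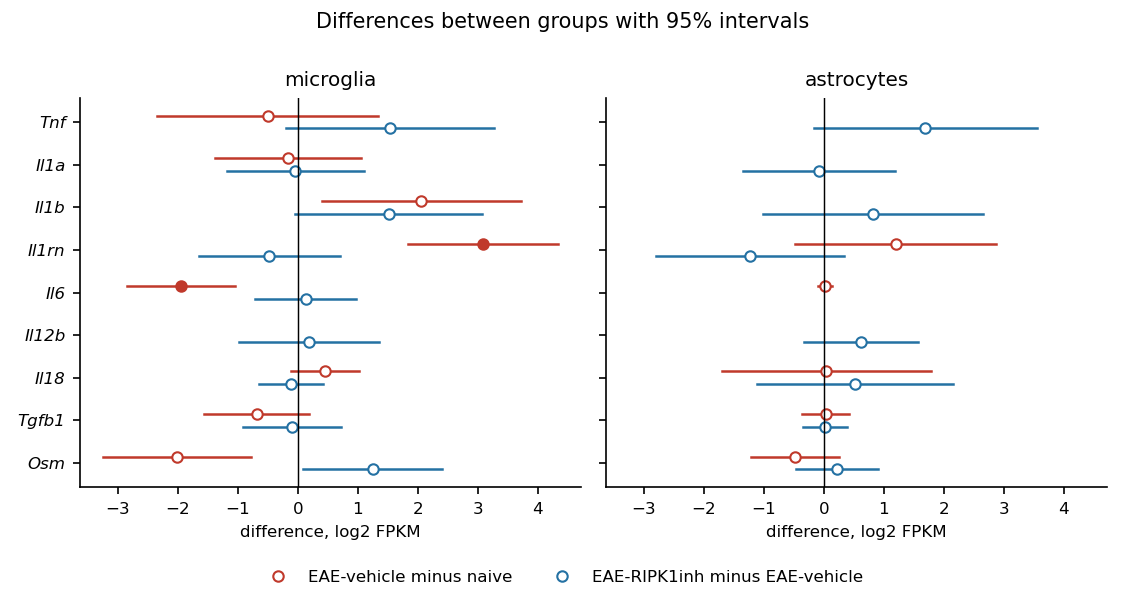
Difference in log2 FPKM between groups for each cytokine in microglia (left) and astrocytes (right), with 95% intervals; filled points are past the adjusted threshold, and comparisons in which a group had no signal in any library are left out. The filled points are Il1rn (3.09) and Il6 (-1.95) in microglia for EAE-vehicle minus naive, and no point of EAE-RIPK1inh minus EAE-vehicle is filled.

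Astrocytes gave little signal for most of these cytokines. In naive astrocytes Tnf, Il1a, Il1b and Il12b were without signal in all 4 libraries, at no more than 0.01, 0.08, 0.08 and 0.00. Il1rn, Il6, Tgfb1 and Osm had signal in 1 naive library each, at 0.37, 0.07, 0.53 and 2.12. Il18 alone was abundant, at 6.07, 4.20, 6.18 and 4.96 in naive astrocytes.

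None of the 9 cytokines was called or met the cutoff in EAE-vehicle against naive astrocytes, where 0.579% of 30718 genes were called and 6.71% met the cutoff. Values in EAE were scattered over single libraries. Tnf was at 2.48, 1.15 and 3.88 in EAE-vehicle 3, 4 and 6 and without signal in the other 3. Il1b was at 4.07 in EAE-vehicle 5 and at most 0.33 in the other 5, and Il1rn was at 3.93 and 3.84 in EAE-vehicle 4 and 6 and at most 0.08 in the rest. Il12b was at most 0.07 and Osm at most 0.29, while Il1a ran from 0.00 to 3.16, Il6 from 0.03 to 0.27 and Tgfb1 from 0.09 to 0.63. Il18 ran from 5.55 to 6.67 in 5 libraries, and the value of 1.83 in EAE-vehicle 1 was without signal. The interval of the difference was -0.73 to 3.23 for Tnf and -1.19 to 2.72 for Il1b, so changes of several fold were within what these libraries cannot resolve.

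Markers of several cell types moved with EAE in the astrocyte libraries. The mean of the 10 microglial markers was 0.95 to 2.47 in naive, 2.01 to 4.03 in EAE-vehicle and 2.43 to 3.05 in EAE-RIPK1inh astrocytes. Of these, 1 rose and 3 were higher at the cutoff in EAE-vehicle astrocytes. Of 7 oligodendrocyte markers, 4 were higher at the cutoff, and of 8 astrocyte markers 2 fell and 1 rose. Leukocyte markers moved as well. The mean of 9 T cell markers was 0.34 to 1.27 in naive, 1.41 to 6.01 in EAE-vehicle and 1.39 to 5.72 in EAE-RIPK1inh astrocytes, and the summed level was 3.07 to 11.4, 12.7 to 54.1 and 12.5 to 51.5. Of the 9, Cd2 rose in EAE-vehicle and 7 in all met the cutoff, and Cd3d, Lck and Cd2 were without signal in every naive library. The mean of the 9 monocyte and neutrophil markers was 0.17 to 1.40, 1.72 to 4.32 and 1.53 to 5.03, with 5 of 8 tested meeting the cutoff in EAE-vehicle and Ly6g without signal in all naive and EAE-vehicle libraries. In microglia, T cell markers were at a mean of 0.14 to 0.41 in naive, 0.23 to 0.86 in EAE-vehicle and 0.10 to 2.22 in EAE-RIPK1inh libraries. The value of 2.22 was in EAE-RIPK1inh 3. The cytokine that rose in EAE-vehicle astrocytes was Ltb, lymphotoxin β, a product of lymphocytes, the 1 called of 21 related ligands. It was without signal in all 4 naive libraries and at 3.22 to 6.58 in EAE-vehicle (adjusted p = 0.0194). Ltb also had signal in naive microglia, at 1.70, 2.20, 2.42 and 4.54. Ifng, the T cell and NK cell cytokine, was listed at 0 in all microglia libraries and in all naive astrocytes, and had signal in 5 of 6 EAE-vehicle astrocyte libraries, up to 6.61. The part of these cells in the cytokine values was not tested.

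RIPK1 kinase inhibition was compared with vehicle in astrocytes too. No cytokine and no gene was called (0%), with a smallest adjusted p of 0.840 and 998 genes at an unadjusted p under 0.05, and no cytokine met the cutoff, against 3.02% of genes. Tnf was at 3.89, 4.29, 2.39 and 4.17 in 4 EAE-RIPK1inh libraries and without signal in EAE-RIPK1inh 5, a difference of 1.69 (interval -0.16 to 3.55, unadjusted p = 0.0711, exact permutation p = 0.141). Il1rn was at most 0.34 in EAE-RIPK1inh astrocytes, with a difference of -1.23 (interval -2.80 to 0.34), and Il1b was at 0.92, 0.02, 3.83, 3.24 and 0.06. Il12b had signal in 1 of 5 libraries, at 3.16. In EAE-RIPK1inh against naive astrocytes none was called, against 0.130% of genes, and Tnf met the cutoff, against 4.63%. That comparison has a naive group without signal for Tnf (adjusted p = 0.645, exact permutation p = 0.0238), so no fold is given.

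**Figure D5:**
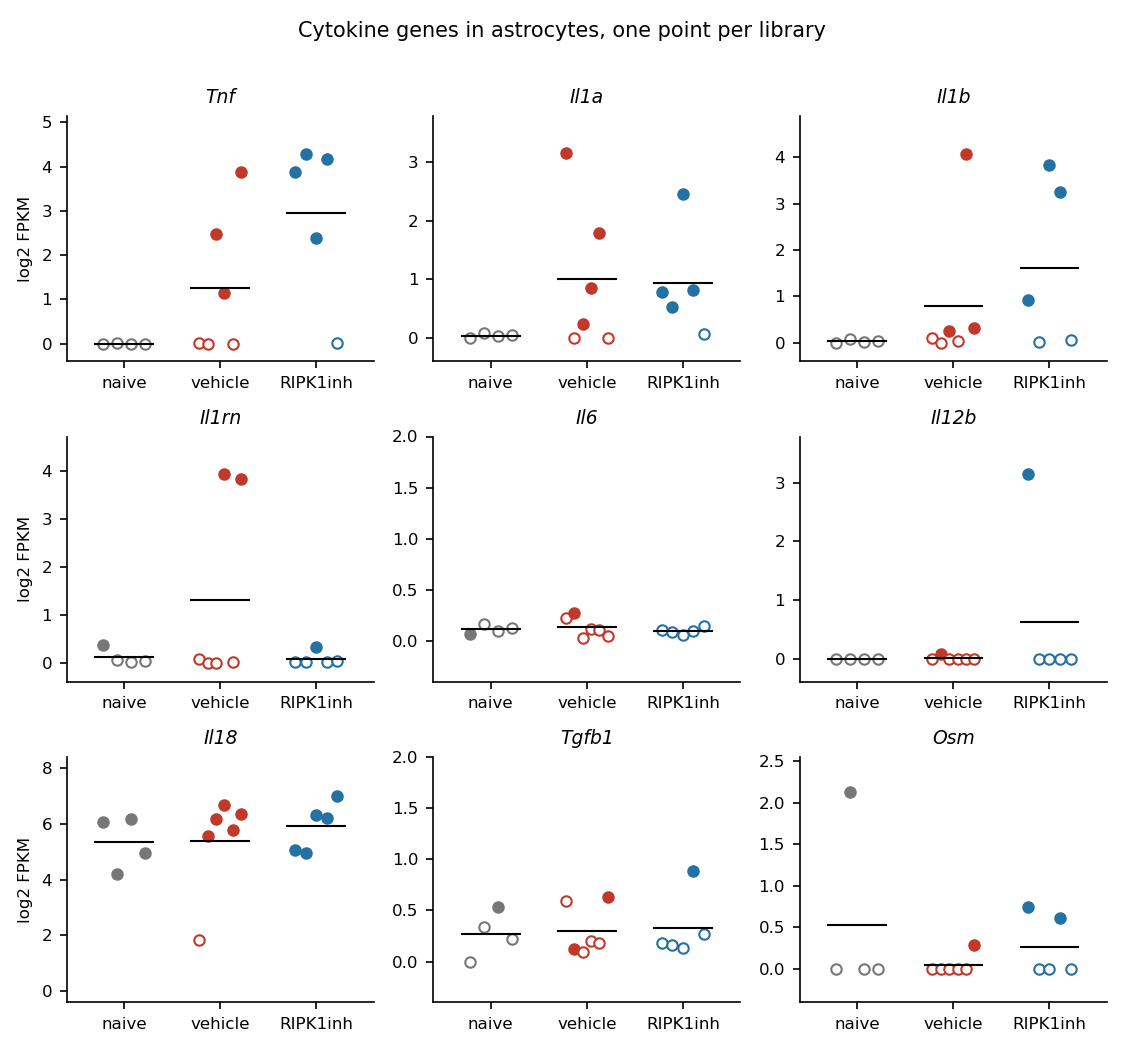
Level of each of 9 cytokine genes in astrocytes, in log2 FPKM on the vertical axis, by group on the horizontal axis; each point is 1 library, open points are without signal and the line is the group mean. Il18 lies at 4.20 or above in 14 of 15 libraries, while Il1b, Il1rn, Il12b and Osm have signal in 6, 4, 2 and 4 of 15.

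The cell types were compared within each treatment group. In naive mice 5 of 9 cytokines were higher in microglia (Tnf, Il1a, Il6, Tgfb1 and Osm) and none in astrocytes, against 11.9% of 30952 genes called. Each of the 5 had an exact permutation p of 0.0286, the smallest for 4 against 4. Il6 and Tgfb1 had signal in 1 of 4 naive astrocyte libraries each. Values up to 1.69 were without signal in astrocyte naive 2, above the lowest naive microglia values of Il6 (0.96) and Tgfb1 (0.66). For Il6 and Tgfb1, microglia were therefore not shown to lie apart from that library. In EAE-vehicle mice 5 were higher in microglia (Tnf, Il1a, Il1b, Il1rn and Osm), against 13.8%, and in EAE-RIPK1inh mice 4 were (Il1a, Il1b, Il1rn and Osm), against 13.0%. Values up to 2.74 were without signal in astrocyte EAE-vehicle 1. The lowest EAE-vehicle microglia values of Tnf (0.00), Il1b (1.94) and Osm (0.95) lay below that. For Tnf, Il1b and Osm, EAE-vehicle microglia were therefore not shown to lie apart from that library. Il1a was the most different, at 4.24 to 7.94 over all microglia and at most 3.16 over all astrocytes. Osm differed by 2.55 in EAE-vehicle (adjusted p = 0.000195) and by 3.58 in EAE-RIPK1inh mice (adjusted p = 6.63e-06). The calls of Tnf (adjusted p = 0.0493) and Il1b (0.0472) in EAE-vehicle mice were at the threshold, and with 1 library left out Tnf kept its call in 6 of 30 fits and Il1b in 10 of 30, with adjusted p up to 0.117 and 0.147.

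Il18 was not called between the cell types in any group, with differences of 0.39 (interval -1.01 to 1.79) in naive, 0.80 (-0.34 to 1.95) in EAE-vehicle and 0.17 (-1.09 to 1.43) in EAE-RIPK1inh mice. Il33, an IL-1 family alarmin, was higher in the astrocyte libraries of naive mice. It was at 7.18 ± 0.39 in naive astrocytes (SD, n = 4) and at most 0.58 in naive microglia (adjusted p = 2.97e-15). The naive astrocyte libraries also held oligodendrocyte markers, with list means of 6.19 to 7.39, and the part of those cells in Il33 was not tested.

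In the interaction of EAE with cell type, Il6 was the 1 of 9 cytokines called, against 0.982% of genes. Il6 fell by 1.95 in microglia and differed by 0.02 in astrocytes, where it was at or below 0.27 in every library, and the interaction was -1.97 (SE 0.42, interval -2.83 to -1.11, adjusted p = 0.0143). Since a fall could not be seen in astrocytes, the interaction restates the microglial difference and does not show that the effect of EAE differs between the cell types. It stayed called with each of the 30 libraries left out in turn, and not with library quality weights (adjusted p = 0.281). Osm met the cutoff for the interaction (-1.53, adjusted p = 0.544), and missed it in 21 of 30 fits with 1 library left out. The effect of RIPK1 kinase inhibition was not shown to differ between the cell types for any cytokine (0% of genes called, 1066 at an unadjusted p under 0.05).

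Genes whose level went most closely with that of a cytokine were sought over the 15 microglia libraries, among 6019 protein-coding genes with signal in all of them and a mean of at least 1, for the 4 cytokines with signal in all 15. These correlations pool 3 groups of libraries and are descriptive. Il1a was nearest to Cd83 and Gpat4 (Pearson r = 0.84 and 0.84), Osm to Jmjd1c and Clasp1 (0.87 and 0.86), Tgfb1 to Kdm5c and Icmt (0.85 and 0.84) and Il18 to Ndufs3 and Psmb1 (0.83 and 0.81). Among the cytokines themselves the highest correlation was between Il1b and Il1rn (0.81 over the 15 microglia libraries).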

How the data were processed

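RNA of sorted spinal cord microglia and astrocytes was sequenced in 30 libraries, and groups and replicate numbers were taken from the deposited labels. Reads were handled by the authors with OmicSoft Array Studio, and log2 FPKM values, quantile-normalized over all libraries, were deposited. The 30 libraries hold the same sorted values, so depth is unknown and no counting interval is given. The aligner, annotation release and offset before the logarithm are not given in the sources used here, and a difference at low values depends on that offset and understates the change. Genes without signal were recognised as the stretch of low values that follow the row order. Positions of the 9 cytokines matched a GRCm38 annotation.

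Groups were compared with limma 3.58.1 in R 4.3.3 (lmFit, and eBayes with a variance trend), 1 fit per cell type and 1 of all 30 libraries for comparisons between cell types. Genes identical in all libraries of a fit were left out, and Benjamini-Hochberg adjustment was over all genes tested. The study's methods name a paired test, and its labels do not pair mice of different groups, so the fits are unpaired. Same-numbered libraries of different groups were not shown to deviate together (r of deviations -0.17 to 0.24 over 26 pairs within a cell type). Between the cell types r was -0.04 to 0.12 over 15 pairs, of which 6 matched their own number best. With treatment and replicate number taken as the mouse, the consensus correlation within a mouse was -0.0124. The study counts the libraries of a group as separate mice and sorted both cell types from their spinal cords, and the labels do not tie a microglia library to an astrocyte library of the same mouse. Exact permutation tests were two-sided over all splits. The fits were tested on simulated data. The cytokines, 4 pathway lists, marker lists and tests were chosen with earlier results of these data known. All 9 cytokines are named. For EAE-vehicle against naive, pathway genes were named where past the adjusted threshold (at most the 5 largest differences per list and comparison). In the other comparisons only some of the genes past it were named (Il27, Il18bp, Csf1 and Il33). Tnfrsf1a, Tnfrsf1b, Il1r1, Il6ra, Osmr, Ebi3, Casp1 and Tgfbr2 were added after their values were seen. The genes most like a cytokine are the 2 with the highest Pearson r. Of 25 related ligands, 4 had no row and were not analysed here.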

Additional observations from a re-analysis of the deposited data

Results flagged for a closer look

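Libraries that stood apart from the rest of their group were sought in 48 groups of 4 to 6 libraries (each of 9 cytokines in each cell type and treatment, less the groups without signal in any library) with Dixon's ratio of gap to range, and 13 groups held one. Chance flags about 1 in 20 groups, and groups in which most libraries are at or near 0 pass the limit easily. In microglia, Tnf was at 6.07 in naive 2 against 3.39 to 3.62 in the other naive libraries, and at 0.00, without signal, in EAE-vehicle 3 against 3.51 to 4.86. Il1b was at 2.73 in EAE-RIPK1inh 2 against 4.82 to 5.39, and Il18 was at 5.72 in EAE-vehicle 3 against 6.23 to 6.40. In astrocytes, Il18 was at 1.83 without signal in EAE-vehicle 1, the library with the fewest genes with signal, against 5.55 to 6.67. Il1b was at 4.07 in EAE-vehicle 5 against at most 0.33, Il12b at 3.16 in EAE-RIPK1inh 1 against 0.00, Osm at 2.12 in naive 2 against 0.00, and Tgfb1 at 0.88 in EAE-RIPK1inh 4 against 0.13 to 0.27. The rest lay near 0, with Il1rn at 0.37 in naive 1 and 0.34 in EAE-RIPK1inh 3, Il12b at 0.0702 in EAE-vehicle 2 and Osm at 0.29 in EAE-vehicle 6.

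Il6 had an interaction of EAE with cell type of -1.97 (adjusted p = 0.0143 in limma over all genes). Il6 was near 0 in all astrocyte libraries, where a fall could not be seen, so this does not show that the effect of EAE differs between the cell types.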

How the results depend on the processing

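Each of 9 cytokines in each of 11 comparisons, 99 results, was recomputed under the alternatives (a mean log2 value of at least 1, protein-coding genes only, values without signal set to 0, each library centred on its median, library quality weights, no variance trend, the replicate block, and 1 library left out). Of these, 28 changed sign under at least 1 alternative, and none of them was among the 30 with an unadjusted p under 0.05. For the 54 results of the microglia comparisons and of the others described above, 1414 recomputed values stayed on the same side of the adjusted threshold, 92 fell short of it, 8 passed it and 21 changed sign. With quality weights, Il1a (0.0399) and Il12b (-0.41) changed sign for EAE-RIPK1inh against EAE-vehicle microglia and Il18 (-0.33) between the cell types in EAE-RIPK1inh mice. Without the 5 libraries high in monocyte and neutrophil markers, a choice made after the data were seen, Il1a changed sign for EAE-RIPK1inh against EAE-vehicle (0.26) and against naive microglia (0.0931). With 1 library left out, the differences of EAE-vehicle from naive microglia ran from -0.74 to 0.23 for Tnf and -0.42 to 0.20 for Il1a. Those of EAE-RIPK1inh from EAE-vehicle microglia ran from -0.41 to 0.51 for Il1a, -0.0858 to 0.60 for Il12b, -0.30 to 0.0367 for Il18 and -0.25 to 0.0508 for Tgfb1. That of Il1a from naive ran from -0.58 to 0.35, and that of Il18 between the cell types in EAE-RIPK1inh mice from -0.0719 to 0.44. Of the counts of called cytokines, 402 stayed within 1.5 times, 39 were lower and 14 higher.

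For EAE-vehicle against naive microglia the count of 2 past the adjusted threshold was 1 with library quality weights, 1 with the replicate block and 1 without the 5 libraries high in monocyte and neutrophil markers. The last also gave 3 in place of 5 at the cutoff, and with 1 library left out that count was 3 (without naive 4) to 5. With the replicate block, Il1rn differed by 2.80 (adjusted p = 0.0653). The replicate numbers were not shown to pair the samples, since 4 of 26 same-numbered pairs within a cell type correlated above 0.1 and 8 matched their own number best. For EAE-RIPK1inh against EAE-vehicle microglia the count of 1 at the cutoff was 3 with a mean of at least 1, 2 with quality weights and 0 to 2 with 1 library left out. For EAE-RIPK1inh against naive microglia the count of 3 was 0 with quality weights, 1 with the replicate block, 1 without the 5 libraries and 0 to 3 with 1 left out.

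In astrocytes the counts at the cutoff were 1 in place of 0 for EAE-vehicle against naive with quality weights. For EAE-RIPK1inh against EAE-vehicle they were 1 in place of 0 with quality weights and with the replicate block, and 0 to 1 with 1 library left out. For EAE-RIPK1inh against naive they were 3 in place of 1 with quality weights and 1 to 2 with 1 library left out. Between cell types, the 5 called in naive mice were 3 with a mean of at least 1, and the 5 in EAE-vehicle mice were 3 with quality weights and 3 to 5 with 1 library left out. The Il6 interaction was 0 of 9 with quality weights and 0 with a mean of at least 1, where Il6 itself is not tested. Where no construction shows it, the cause was not tested. Depth is unknown, and low values are limited by the genes with signal in each library.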
